A study of Mus musculus with 48 samples.

Results

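Slc30a1, Mt1, Mt2, Mtf1 and Slc39a10 are 5 genes of zinc handling that were chosen from the 47480 gene symbols in the count tables because their RNA differed, or because they belong to the same pathway as those that differed, between stretched and non-stretched muscle cells at 1 h, 3 h and 6 h. All 5 passed the filter on low counts in each comparison. RNA was sequenced from C2C12 cells, an established line of mouse myoblasts that fuse into multinucleated muscle cells when they differentiate. The cells were of 2 stages, undifferentiated myoblasts and differentiated cells (labelled myotubes). At each time, 4 libraries of a stage came from cells that had been stretched throughout and 4 from non-stretched cells, which gives 48 libraries in 12 groups. The labels name no drug, metal or transgene, and stretching is the only treatment they give. Cells were stretched in both directions of the plane, in cycles, on flexible membranes with the Flexcell system, a plate whose membrane is pulled down by vacuum, and RNA was taken at the end of stretching. Each time point had its own non-stretched group, so that no control library is shared between time points.

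Zinc enters the cytosol through transporters of the ZIP family, to which Slc39a10 belongs, and leaves it through transporters of the ZnT family. Slc30a1 encodes ZnT1, the ZnT member at the plasma membrane that exports zinc from the cell. Mt1 and Mt2 encode metallothioneins, small cysteine-rich proteins that bind zinc and copper. Mtf1 encodes the zinc-sensing transcription factor that binds metal response elements in the promoters of Slc30a1, Mt1 and Mt2 when cytosolic zinc rises and that is known to repress Slc39a10. Metallothionein genes are also known to respond to glucocorticoids and to oxidative stress.

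Slc30a1 lies on the plus strand of chromosome 1 at chr1:191906767-191913247 (mm10, GENCODE vM21), and Slc39a10 on the minus strand of the same chromosome at chr1:46807544-46892852. Mt2 at chr8:94172664-94173568 and Mt1 at chr8:94179082-94180327 lie in one cluster on the plus strand, and their starts are 6418 bases apart. Mtf1 lies on the plus strand at chr4:124802104-124849800. Promoter windows that run from 250 bases before to 50 bases after a RefSeq start (GRCm38.p6) were found for all 5 genes, with 2 starts for Slc39a10. The core of the metal response element was searched as TGCACNC and TGCGCNC on both strands, which reads GNGTGCA and GNGCGCA where it lies on the opposite strand. The windows of the 3 genes that hold it are shown because these are the genes whose RNA was higher after 3 h of stretching in both stages. They are chr1:191906531-191906830 for Slc30a1, chr8:94178839-94179138 for Mt1 and chr8:94172368-94172667 for Mt2, all on the plus strand, and the capitals mark the matches.
Slc30a1: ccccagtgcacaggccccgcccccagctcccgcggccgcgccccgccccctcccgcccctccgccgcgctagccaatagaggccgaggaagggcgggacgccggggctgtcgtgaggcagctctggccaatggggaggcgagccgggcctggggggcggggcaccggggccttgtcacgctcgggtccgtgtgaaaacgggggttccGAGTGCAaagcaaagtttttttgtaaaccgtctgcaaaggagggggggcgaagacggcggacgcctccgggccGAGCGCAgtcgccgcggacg
Mt1: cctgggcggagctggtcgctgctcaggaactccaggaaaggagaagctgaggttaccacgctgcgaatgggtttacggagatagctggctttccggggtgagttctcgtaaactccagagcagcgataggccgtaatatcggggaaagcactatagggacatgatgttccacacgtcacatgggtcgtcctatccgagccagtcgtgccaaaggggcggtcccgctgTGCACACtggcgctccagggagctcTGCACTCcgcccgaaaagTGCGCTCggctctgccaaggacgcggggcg
Mt2: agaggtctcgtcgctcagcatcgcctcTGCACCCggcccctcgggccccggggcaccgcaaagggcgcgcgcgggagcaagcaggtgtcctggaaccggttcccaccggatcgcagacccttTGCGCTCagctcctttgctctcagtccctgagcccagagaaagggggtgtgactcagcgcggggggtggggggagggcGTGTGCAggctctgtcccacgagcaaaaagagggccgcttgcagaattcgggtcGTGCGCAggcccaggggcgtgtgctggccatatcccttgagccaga

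The Slc30a1 window held 2 matches, both on the opposite strand, whose first bases lie at -43 and 30 from the start. The Mt1 window held 3 on its own strand, at -23, 2 and 20, and the Mt2 window held 4, at -223 and -128 on its own strand and at -50 and 4 on the opposite strand. The matches did not overlap one another. The windows of Mtf1 and Slc39a10 held none of these letters. Of 32851 mouse promoter windows of this length, 25.7% held at least 1 match, 7.11% at least 2, 1.97% at least 3 and 0.517% at least 4. The 3 windows are rich in G and C, with a share of 73.0% for Slc30a1, 60.7% for Mt1 and 67.7% for Mt2, while the median over all windows was 52.7%. A match is a description of the letters and no evidence that a protein binds there.

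The stages were checked by markers. The 6 markers of differentiated muscle (Myog, Mef2c, Tnnt1, Ckm, Acta1 and Myh3) summed to between 6.99 and 16.1 CPM (counts of a gene scaled to the size of the library) in the 24 myoblast libraries, where Ckm had between 0 and 12 counts, and to between 9412 and 11539 CPM in the 24 libraries of differentiated cells. The 6 markers of proliferating myoblasts (Myf5, Pax7, Mki67, Top2a, Ccnb1 and Cdk1) summed to between 1514 and 1846 CPM in myoblasts. They were still present in differentiated cells, at 247 to 623 CPM. Pax7 did not follow this sum, with 1330 to 2009 counts in a myoblast library and 1499 to 2506 in a library of differentiated cells. The libraries held between 48447318 and 77080730 counts, so that Slc30a1 was measured with 996 to 3263 counts in a library, Mt1 with 3258 to 7811, Mt2 with 2962 to 6259, Mtf1 with 1516 to 4476 and Slc39a10 with 1201 to 6515. By the experiment codes in the labels, replicates 7 and 8 of a stage came from one experiment and replicates 9 and 10 from another. For differentiated cells, the study's methods describe samples from more experiments, only one of which gave more than a single sample. The codes show this for the stretched cells at 1 h only, and the codes are followed here. The stretched differentiated cells at 1 h hold replicates 4, 7, 8 and 9, and no other library shares the experiment of replicate 4. That replicate had the highest summed level of the markers of proliferating cells in its group (623 CPM, with a group median of 389), and also the highest Slc30a1 and the lowest Mt1 of that group. The labels name the molecule as nuclear RNA, while the study's methods describe a stranded mRNA library.

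Because these genes were chosen on the contrast between stretched and non-stretched cells, their values in it are given as a description, without a test. The log2 fold change is that of edgeR's quasi-likelihood fit on 4 against 4 libraries with its standard error (SE), and a gene counts as called where its p-value, adjusted after Benjamini and Hochberg, is under 0.05 and its log2 fold change is 0.58 or more, up or down. The median log2 fold change over all genes tested was between -0.01 and 0.00 in the 6 comparisons.

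Slc30a1, the zinc exporter, was higher in stretched than in non-stretched cells at 3 h in both stages, and not at 1 h or 6 h. In non-stretched myoblasts at 3 h it had 22.1, 19.5, 20.3 and 19.4 CPM (replicates 7 to 10), and in stretched myoblasts 38.2, 35.0, 34.5 and 32.8 CPM. Each stretched library was above each non-stretched one, with a log2 fold change of 0.80 (SE 0.051) or 1.74-fold, which ranked 50 from the top among 14813 genes. Among differentiated cells at 3 h, the non-stretched libraries had 23.5, 23.6, 21.4 and 21.4 CPM and the stretched ones 40.8, 37.9, 43.5 and 43.5 CPM, again without overlap, with a log2 fold change of 0.88 (SE 0.053) or 1.84-fold, which ranked 64 from the top among 15513 genes.

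The higher level of Slc30a1 at 3 h was present in each experiment. The log2 difference at 3 h was 0.82 in replicates 7 and 8 and 0.76 in replicates 9 and 10 of the myoblasts, and 0.74 and 1.02 in those of the differentiated cells. At 1 h, Slc30a1 had 20.4 ± 0.487 CPM in non-stretched and 20.1 ± 0.499 in stretched myoblasts (mean ± SD, n = 4), and the groups overlapped (log2 fold change -0.02, SE 0.037). Differentiated cells at 1 h had 24.1, 25.8, 22.6 and 22.5 CPM without stretching, and 28 CPM in replicate 4 and 24.8, 24.7 and 21.2 CPM in replicates 7 to 9 with stretching (log2 fold change 0.05, SE 0.083). Replicate 4 was the highest of these libraries. Without it the log2 fold change was -0.01.

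Some stage markers also differed with stretching. In myoblasts the lowest log2 fold changes were at 1 h, for Myog (-1.25, SE 0.33), Tnnt1 (-1.02, SE 0.29) and Myh3 (-0.88, SE 0.37). Tnnt1 had 9 to 55 and Myh3 40 to 208 counts in a myoblast library. The median over the 5 tested markers of differentiated muscle was -0.88 at 1 h and -0.16 at 3 h. No marker of either list passed an adjusted p under 0.05 (edgeR) at 1 h in either stage. At 3 h in differentiated cells, 3 of the 6 markers of proliferating cells were higher with stretching at an adjusted p under 0.05 (edgeR). They were Ccnb1 (log2 fold change 0.34), Cdk1 (0.22) and Top2a (0.12). Of all genes, 10.8% were higher and 11.4% lower there by this rule. The 6 markers summed to 342 to 362 CPM without and 348 to 404 CPM with stretching. At 3 h in myoblasts, Ccnb1 was higher (0.13) and Top2a lower (-0.09), where 16% of all genes were higher and 15.8% lower. The sum in these myoblasts was 1671 to 1837 CPM without and 1630 to 1756 CPM with stretching. The markers of differentiated muscle summed there to 9.31 to 15.1 CPM without and 8.41 to 11 CPM with stretching. Myog, a regulator of differentiation, was lower (-0.82, SE 0.23), but its groups overlapped. It had only 19 to 178 counts in a myoblast library. In differentiated cells at 3 h none of the 6 markers of differentiated muscle passed, and their sums overlapped (10456 to 11539 and 10020 to 11042 CPM). At 6 h Myf5, a regulator of the muscle lineage, was higher with stretching in both stages (0.40 and 0.51). In myoblasts at 6 h Pax7 (-0.23), Ccnb1 (-0.14), Top2a (-0.13) and Myog (-0.54) were lower. Of all genes at 6 h, 14.1% were higher and 13% lower in myoblasts, and 11.5% and 10.8% in differentiated cells. The part of these markers in the values of the 5 genes was not tested.

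At 6 h, Slc30a1 in stretched cells was at or below the level of non-stretched cells. Non-stretched myoblasts had 20.8, 20.8, 21.7 and 21.0 CPM and stretched ones 20.4, 19.6, 18.6 and 18.5 CPM, so that all stretched libraries lay below all non-stretched ones by a small margin (log2 fold change -0.13, SE 0.041). In differentiated cells the values were 23.8, 22.5, 19.8 and 21.4 CPM without and 18.6, 19.8, 20.9 and 21.9 CPM with stretching. These groups overlapped (log2 fold change -0.11, SE 0.065), and the difference was -0.27 in replicates 7 and 8 and 0.05 in replicates 9 and 10.

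**Figure D1:**
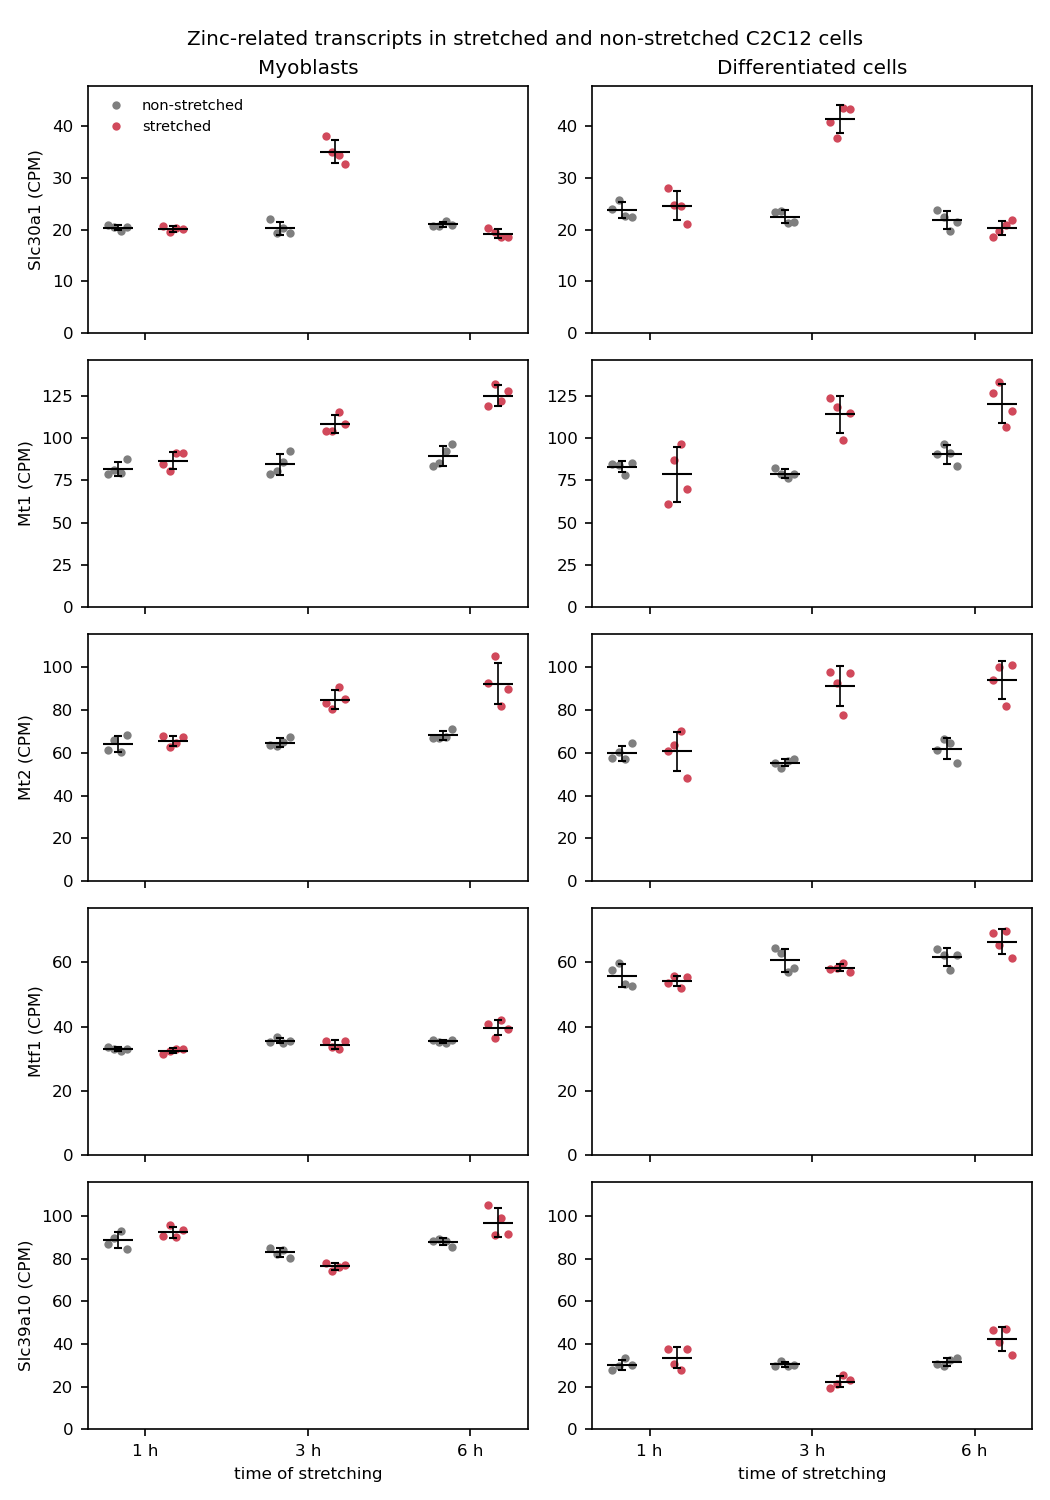
CPM of Slc30a1, Mt1, Mt2, Mtf1 and Slc39a10 (vertical axes, from 0) in each library of non-stretched (grey) and stretched (red) cells at the 3 times, with myoblasts on the left and differentiated cells on the right. Points are libraries, and black lines are the mean and SD of 4 libraries. Slc30a1 stands out at 3 h, where stretched libraries had 32.8 to 38.2 CPM in myoblasts and 37.9 to 43.5 CPM in differentiated cells, while Mt1 and Mt2 were high at both 3 h and 6 h.

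Both metallothionein genes were higher in stretched cells at 3 h and were still higher at 6 h. Mt1 in myoblasts at 3 h had 78.8, 80.7, 85.6 and 92.6 CPM without stretching and 104, 104, 116 and 108 CPM with it. At 6 h the non-stretched libraries had 83.3, 85.3, 92.3 and 96.3 CPM and the stretched ones 119, 132, 122 and 128 CPM. No stretched library fell within the range of the non-stretched ones at either time. For Mt1 the log2 fold change was 0.36 (SE 0.047) at 3 h and 0.49 (SE 0.049) at 6 h.

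The differentiated cells at 3 h had Mt1 at 82.0, 78.9, 76.1 and 79.0 CPM without stretching and 124, 119, 98.6 and 115 CPM with it. At 6 h it had 90.3, 96.5, 91.3 and 83.2 CPM without and 127, 133, 106 and 116 CPM with stretching. Stretched libraries were again above all non-stretched ones, and replicate 9 was the lowest stretched library at both times. The log2 fold change was 0.53 (SE 0.060) at 3 h and 0.41 (SE 0.068) at 6 h.

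Mt2 followed Mt1 in myoblasts. Its 4 non-stretched libraries had 63.7, 63.1, 65.2 and 67.4 CPM at 3 h and the stretched ones 83.2, 80.4, 90.9 and 85.3 CPM, a log2 fold change of 0.40 (SE 0.036). At 6 h the values were 66.8, 67.1, 67.6 and 71.1 CPM without and 92.8, 105, 82.0 and 89.9 CPM with stretching, a log2 fold change of 0.44 (SE 0.061). The groups did not overlap at either time.

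In differentiated cells the log2 fold change of Mt2 was larger, and it passed the 0.58 limit. At 3 h, Mt2 had 55.2, 53.1, 56.3 and 57.3 CPM in non-stretched and 97.7, 92.6, 77.9 and 97.3 CPM in stretched cells. This is 1.65-fold (log2 fold change 0.72, SE 0.065). At 6 h the non-stretched libraries had 61.4, 66.6, 64.7 and 55.4 CPM and the stretched ones 93.9, 100, 81.7 and 101 CPM, which is 1.52-fold (log2 fold change 0.60, SE 0.074). Replicate 9 was the lowest stretched library here too. When a library was left out, the log2 fold change of Mt2 was 0.69 to 0.79 at 3 h and 0.55 to 0.67 at 6 h. At 6 h it thus did not pass the 0.58 limit in every such fit. Whether the change of Mt2 differed between the stages was not tested.

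At 1 h neither metallothionein gene stood apart from the non-stretched cells. The log2 fold change in myoblasts was 0.09 (SE 0.048) for Mt1 and 0.04 (SE 0.044) for Mt2, with overlapping groups. In differentiated cells at 1 h, Mt1 had 84.3, 84.3, 78.1 and 85.5 CPM without stretching, and 60.9 CPM in replicate 4 and 86.8, 96.6 and 69.9 CPM in replicates 7 to 9 with stretching. The stretched libraries lay both above and below the non-stretched ones, and the log2 fold change was -0.08 (SE 0.12), or 0.02 without replicate 4. Mt2 had a log2 fold change of 0.02 (SE 0.10) there, 0.18 in the libraries of replicates 7 and 8 and -0.34 in replicate 9 against replicates 9 and 10.

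The ratio of Mt1 counts to Mt2 counts within a library stayed near one value in myoblasts, with group means of 1.28 to 1.36. In differentiated cells at 3 h it was 1.43 ± 0.0708 without and 1.25 ± 0.0459 with stretching, and at 6 h 1.46 ± 0.0379 and 1.28 ± 0.0939 (mean ± SD, n = 4). The 4 stretched libraries at 3 h had ratios of 1.18 to 1.28 and the non-stretched ones of 1.35 to 1.49, and at 6 h the ranges were 1.14 to 1.35 and 1.41 to 1.5. The metallothionein genes Mt3 and Mt4, which lie in the same cluster, had 0 to 2 and 0 to 3 counts in any of the 48 libraries and did not pass the filter on low counts.

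Mtf1, the zinc-sensing factor, differed little in RNA level. Its log2 fold change lay between -0.05 and -0.02 at 1 h and 3 h in both stages, with overlapping groups. At 6 h in myoblasts it had 35.8, 35.0, 34.8 and 35.8 CPM without stretching and 40.9, 36.4, 42.0 and 39.4 CPM with it. Each stretched library was above each non-stretched one, with a log2 fold change of 0.17 (SE 0.043). Differentiated cells at 6 h overlapped, as the non-stretched libraries had 64.0, 62.2, 57.6 and 62.4 CPM and the stretched ones 69.1, 65.3, 69.9 and 61.5 CPM (log2 fold change 0.11, SE 0.046).

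Slc39a10, the zinc importer, was lower in stretched cells at 3 h and higher at 6 h. In differentiated cells at 3 h it had 29.5, 32.2, 29.9 and 30.1 CPM without stretching and 19.3, 21.2, 25.5 and 23.1 CPM with it. At 6 h the values were 30.8, 29.5, 32.4 and 33.4 CPM without and 46.8, 40.9, 47.1 and 35.0 CPM with stretching. The groups did not overlap at either time, and the side on which the stretched libraries lay was opposite. The log2 fold change was -0.45 (SE 0.073) at 3 h and 0.43 (SE 0.084) at 6 h.

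In myoblasts the values of Slc39a10 lay on the same sides but closer together. At 3 h the non-stretched libraries had 85.3, 82.4, 84.3 and 80.5 CPM and the stretched ones 78.0, 74.5, 76.2 and 77.2 CPM (log2 fold change -0.11, SE 0.026). At 6 h they had 88.5, 89.5, 88.4 and 85.8 CPM and 106, 91.4, 99.4 and 91.8 CPM (log2 fold change 0.14, SE 0.045). Neither pair of groups overlapped. At 1 h the groups overlapped in both stages, with a log2 fold change of 0.06 (SE 0.037) in myoblasts and 0.14 (SE 0.099) in differentiated cells.

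**Figure D2:**
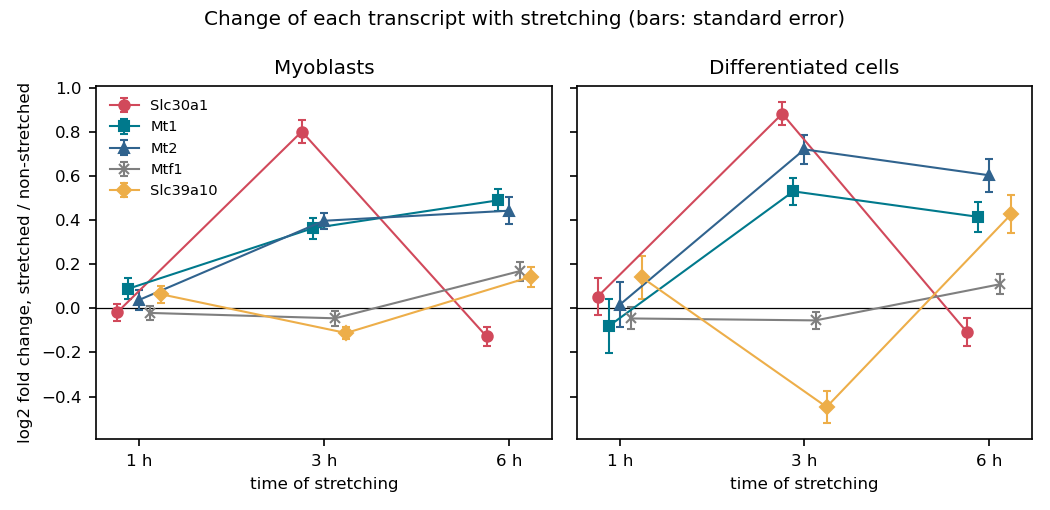
Log2 fold change of stretched against non-stretched cells (vertical axis, bars are the SE of the fit on 4 against 4 libraries) of the 5 genes at the 3 times, in myoblasts (left) and differentiated cells (right). Slc30a1 was at 0.80 and 0.88 at 3 h and at -0.13 and -0.11 at 6 h, Mt1 and Mt2 stayed above 0.3 at both times, and Slc39a10 went from -0.45 to 0.43 in differentiated cells.

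Of the 5 genes, 1 was called in myoblasts at 3 h (Slc30a1), when 1.71% of all genes tested were called (0.459% higher and 1.25% lower). None was called in myoblasts at 1 h, when 1.25% of all genes were (0.254% higher and 0.997% lower), or at 6 h, when 2.17% were (1.35% higher and 0.823% lower). The differentiated cells had none at 1 h (0.27% of all genes, 0.0901% higher and 0.18% lower), 2 higher at 3 h (Slc30a1 and Mt2, with 1.63% of all genes called, 0.89% higher and 0.741% lower) and 1 higher at 6 h (Mt2, with 2.04% called, 0.518% higher and 1.52% lower). At 1 h no gene of the 5 had stretched libraries all above or all below the non-stretched ones, which 5.23% and 8.31% of all genes had in myoblasts and 2.68% and 3.76% in differentiated cells. Stretched libraries were all above non-stretched ones for Slc30a1, Mt1 and Mt2 at 3 h in both stages, which held for 14.6% of genes in myoblasts and 12.7% in differentiated cells, and all below them for Slc39a10 (16.4% and 13.4%). At 6 h they were all above for Mt1, Mt2, Mtf1 and Slc39a10 in myoblasts (14.6%) and for Mt1, Mt2 and Slc39a10 in differentiated cells (14%), and all below for Slc30a1 in myoblasts (14.7%). Since the genes were chosen on these comparisons, the counts are not evidence about them.

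Salmon, which the authors used, divides reads among transcripts that share sequence, and between 0 and 1.62% of the 31-base stretches of the 5 genes also occur in other genes. A gene on the opposite strand, 1110065P20Rik, overlaps Mtf1 and had 565 to 1344 counts in a library. The antisense gene that overlaps Slc30a1, 1700034H15Rik, had 1 to 17 counts. Another antisense gene, Gm45774, overlaps Mt2, but its symbol was not found among those with counts. The kit keeps the strand, but the setting used for quantification is not given in the sources used here.

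Levels without stretching were compared and tested among the non-stretched libraries alone. These libraries are one arm of the contrast on which the genes were chosen, so that the tests are not fully independent of that choice. Per kilobase of the longest coding transcript, Mt2 had the highest level in non-stretched myoblasts (129 ± 6.01 CPM per kb, mean ± SD, n = 12), followed by Mt1 (78.7 ± 5.49), Slc39a10 (15.8 ± 0.672), Mtf1 (4.56 ± 0.177) and Slc30a1 (3.94 ± 0.166). In non-stretched differentiated cells the order was Mt2 (118 ± 8.75), Mt1 (78.9 ± 5.67), Mtf1 (7.91 ± 0.512), Slc39a10 (5.69 ± 0.323) and Slc30a1 (4.41 ± 0.307). No neighbours in these orders overlapped, although the highest Slc30a1 value in myoblasts (4.26) came close to the lowest Mtf1 value (4.27). Mt2 has a short transcript of 0.511 kb, for which a level per kilobase is least certain. The order of Mt2 and Mt1 rests on the lengths used, which was 1.085 kb for Mt1. Before division by length, Mt1 was above Mt2 (85.4 against 65.9 CPM in myoblasts and 85.6 against 60.2 in differentiated cells).

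Between the stages, the importer and the zinc-sensing factor differed most. With both tables scaled together, Slc39a10 was lower in differentiated cells (31.3 ± 1.77 CPM) than in myoblasts (86.9 ± 3.69 CPM; n = 12 each). The log2 fold change was -1.47 (SE 0.027, edgeR's quasi-likelihood test, adjusted p = 1.88e-26). Mtf1 was higher, at 60.4 ± 3.90 against 34.8 ± 1.35 CPM (log2 fold change 0.79, SE 0.024, adjusted p = 9.83e-22). Slc30a1 was slightly higher in differentiated cells, at 23.1 ± 1.61 against 20.7 ± 0.872 CPM (0.16, SE 0.033, adjusted p = 7.28e-05 by edgeR), and Mt2 slightly lower, at 60.2 ± 4.47 against 65.9 ± 3.07 CPM (-0.13, SE 0.030, adjusted p = 2.17e-04).

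For Mt1 no difference between the stages was detected, with 85.6 ± 6.15 and 85.4 ± 5.96 CPM (log2 fold change 0.00, SE 0.031, adjusted p = 0.946 by edgeR). In this comparison 89.4% of 16582 genes passed the test, so that passing it is the common case. Each experiment belongs to 1 stage, and stage and experiment cannot be told apart. In cultures of mixed cells, fewer cells of a type and less RNA per cell cannot be told apart either. The study's methods call the experiments independent and the samples within one separate, but neither they nor the labels say whether samples of one experiment were separate cultures. The p-values take each library as a replicate, and where the libraries of one experiment are not independent, the spread they measure is partly technical.

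**Figure D3:**
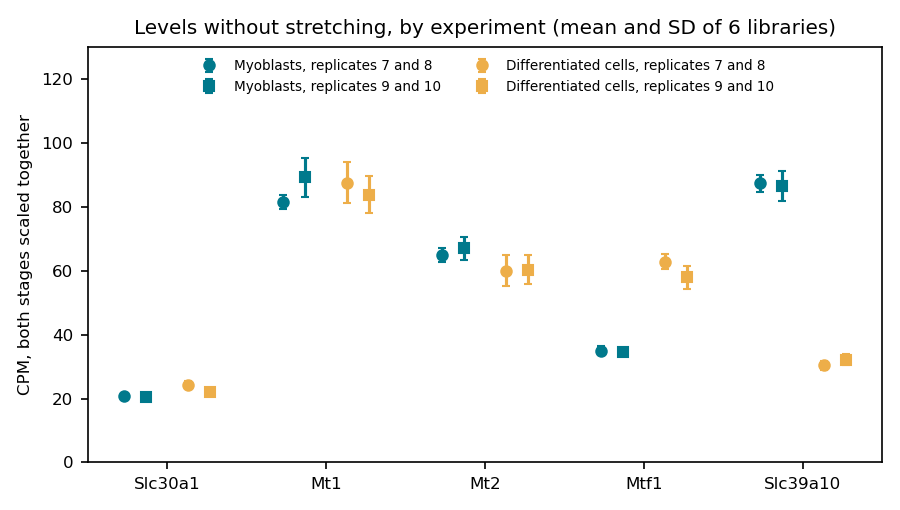
Level of the 5 genes in non-stretched cells (vertical axis, CPM with both stages scaled together, from 0), as mean and SD of 6 libraries, with myoblasts in blue-green, differentiated cells in yellow, replicates 7 and 8 as circles and replicates 9 and 10 as squares. Myoblasts had more Slc39a10 than differentiated cells (86.9 against 31.3 CPM) and less Mtf1 (34.8 against 60.4 CPM) over both experiments of a stage, while Mt1 was at 85.4 and 85.6 CPM.

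For Slc39a10, Mtf1 and Mt2, the 2 experiments of a stage differed less than the stages. For Mt1 they differed more, with a log2 fold change of 0.13 in myoblasts and -0.06 in differentiated cells, against 0.00 between the stages. For Slc30a1 the difference between experiments in differentiated cells (-0.15) was near the size of that between stages (0.16). In non-stretched differentiated cells, Slc30a1 was lower in replicates 9 and 10 (21.9 ± 1.04 CPM) than in replicates 7 and 8 (24.3 ± 1.1 CPM, n = 6 each, log2 fold change -0.15, adjusted p = 0.00368 by edgeR), and so was Mtf1 (57.9 ± 3.54 against 62.9 ± 2.47 CPM, -0.12, adjusted p = 0.00501). Of all genes, 17.3% differed between these experiments. In non-stretched myoblasts Mt1 alone of the 5 genes differed, with 89.2 ± 6.24 CPM in replicates 9 and 10 and 81.6 ± 2.21 in replicates 7 and 8 (0.13, adjusted p = 0.0232 by edgeR), where 4.29% of all genes did.

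Over the 6 h without stretching, 1 of the 20 comparisons of the 5 genes (3 h and 6 h against 1 h in each stage) passed the test. Mtf1 rose in non-stretched myoblasts from 33.0 ± 0.510 CPM at 1 h to 35.6 ± 0.842 at 3 h (log2 fold change 0.11, SE 0.028, adjusted p = 0.0492 by edgeR), when 2.52% of 15213 genes passed. This call was lost when any replicate was left out. Slc30a1 differed from 1 h by -0.01 at 3 h and 0.04 at 6 h in myoblasts and by -0.08 and -0.12 in differentiated cells, with adjusted p-values of 0.39 to 0.991 by edgeR. At 6 h against 1 h, 1.99% of all genes passed in myoblasts and 1.22% in differentiated cells, and none of the 5 genes did. With a replicate block, Mt1 (log2 fold change 0.13, adjusted p = 0.013 by edgeR) and Mtf1 (0.10, adjusted p = 0.0396) passed in myoblasts and Mtf1 (0.14, adjusted p = 0.0388) in differentiated cells, where Mtf1 also passed with the experiment as a covariate (adjusted p = 0.0204). In differentiated cells at 3 h against 1 h, 0 of 15813 genes passed edgeR's test, 897 had an unadjusted p-value under 0.05 and 26 passed DESeq2.

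Across the 12 non-stretched libraries of a stage, the level of Slc30a1 did not go along with that of the other 4 genes. The 8 correlations of log2 CPM (Pearson's r) lay between -0.42 and 0.27 (Spearman's rho -0.41 to 0.39), and the lowest adjusted p-value of a permutation test was 0.934 for r and 0.82 for rho. These values moved with the libraries used. For Mt1 in myoblasts r was 0.04 over all 12 libraries, 0.61 without the 2 libraries farthest from the median of Slc30a1, and -0.25 and 0.46 within the 2 experiments (n = 6 each). For Mtf1 in differentiated cells r was 0.27 over all 12 libraries, 0.29 without the 2 farthest, and -0.48 and -0.56 within the experiments.

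Across all 24 libraries of a stage, where the points share time points and stretching, the gene most like Slc30a1 among 11670 genes was Sprtn, a protease that repairs DNA-protein crosslinks (r = 0.89 in myoblasts and 0.94 in differentiated cells). Gclc, the catalytic subunit of the enzyme that makes the glutathione precursor, came next (0.90 and 0.88), followed by Zwint, a kinetochore protein (0.88 and 0.88). Sprtn had 17.2 ± 0.658 CPM in non-stretched and 21.5 ± 0.151 in stretched myoblasts at 3 h, and 24.8 ± 0.431 and 32.4 ± 2.0 CPM in differentiated cells (n = 4 each). Gclc had 68.5 ± 1.49 and 96.4 ± 2.83 CPM in myoblasts at 3 h, and 51.2 ± 3.98 and 70.9 ± 3.41 CPM in differentiated cells. Zwint had 188 ± 2.82 and 218 ± 1.60 CPM in myoblasts at 3 h, and 78.6 ± 3.43 and 95.3 ± 6.01 CPM in differentiated cells. The correlation of Slc30a1 was 0.26 and 0.24 with Mt1, 0.38 and 0.38 with Mt2, and -0.74 and -0.78 with Slc39a10.

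The gene most like Mt1 was its neighbour Mt2 (r = 0.96 in myoblasts and 0.92 in differentiated cells). The others were Fgfr1, a receptor of fibroblast growth factors (0.88 and 0.90), and Snx8, a sorting nexin of endosomes (0.91 and 0.87). At 6 h, Fgfr1 had 162 ± 2.86 CPM in non-stretched and 210 ± 4.98 in stretched myoblasts, and 243 ± 10.5 and 261 ± 6.27 CPM in differentiated cells. Snx8 had 26.4 ± 2.13 and 34.2 ± 2.66 CPM in myoblasts at 6 h, and 51.8 ± 1.31 and 55.8 ± 2.44 CPM in differentiated cells. These likenesses are descriptions over 24 libraries a stage and were not tested.

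Other genes of zinc handling and of pathways that are known to act on metallothioneins were looked up as lists of 52 genes, of which 41 to 43 passed the filter in a comparison, and each was tested within the fit over all genes. The lists were chosen with earlier results of these data known, so that these tests are not independent of those results. None of the list genes was called at 1 h in either stage. At 1 h, 0 also passed edgeR's adjusted p-value at any fold (in all genes 1.67% higher and 4.24% lower in myoblasts, and 0.193% and 0.47% in differentiated cells). An unadjusted p-value under 0.05 was found for 10 in myoblasts and 2 in differentiated cells, and DESeq2 called 0. The share of all genes with such an unadjusted p-value was not computed, so no excess in the lists can be read from these counts. In myoblasts, 1 was called higher at 3 h and 1 lower at 6 h, when 0.459% of all genes were called higher and 0.823% lower. In differentiated cells 1 was called higher at 3 h (0.89% of all genes) and 1 lower at 6 h (1.52%). The median log2 fold change of the tested list genes lay between 0.02 and 0.05 in the 6 comparisons, next to -0.01 to 0.00 over all genes.

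None of the other ZnT exporters (6 or 7 of 9 tested) or ZIP importers (9 or 10 of 13 tested) was called at any time. With the adjusted p-value alone and no limit on the fold, 2 exporters were higher and 2 lower in myoblasts at 3 h and 1 was higher at 6 h, and in differentiated cells none at 3 h and 2 higher at 6 h. Of the importers, 3 were higher and 1 lower in myoblasts at 3 h, 4 higher at 6 h, and in differentiated cells 1 lower at 3 h, and 1 higher and 1 lower at 6 h. In all genes, 16% were higher and 15.8% lower in myoblasts at 3 h by this rule, 14.1% and 13% in myoblasts at 6 h, 10.8% and 11.4% in differentiated cells at 3 h, and 11.5% and 10.8% at 6 h.

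Gpr39, a receptor that is activated by extracellular zinc, was called higher in differentiated cells at 3 h. It had 2.7, 2.55, 3.20 and 2.65 CPM without stretching and 5.33, 3.85, 3.90 and 4.69 CPM with it, and the groups did not overlap (log2 fold change 0.68, SE 0.12, adjusted p = 0.00322 by edgeR). Without stretched replicate 7 its log2 fold change was 0.576, and the call was lost. The study itself names GPR39 in a drawing of mechanosensitive genes and SRSF4 targets from these data, so the call is no independent result. In myoblasts at 3 h, Gpr39 had 2.69 to 4.0 CPM without and 2.32 to 3.44 CPM with stretching (log2 fold change 0.04, adjusted p = 0.877 by edgeR).

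Of 6 other genes reported as MTF1 targets, Slc40a1, which encodes the iron exporter ferroportin, was called lower at 6 h in both stages. In differentiated cells it had 17.5, 15.8, 16.7 and 17.9 CPM without stretching and 6.95, 7.92, 9.67 and 10.4 CPM with it (log2 fold change -0.96, SE 0.11, adjusted p = 5.38e-04 by edgeR). In myoblasts it was near the limit of what was measured, at 0.744 to 0.896 CPM without and 0.262 to 0.514 CPM with stretching (-0.94, SE 0.20, adjusted p = 0.00595 by edgeR). Gclc had a log2 fold change of 0.50 in myoblasts and 0.47 in differentiated cells at 3 h, with adjusted p-values of 3.17e-07 and 4.31e-04 by edgeR, which is below the limit on the fold. By the adjusted p-value alone, 2 of the 6 were higher and 1 lower at 3 h, and 1 was higher and 2 lower at 6 h, in each stage. In all genes, 16% were higher and 15.8% lower in myoblasts at 3 h by this rule, and 14.1% and 13% at 6 h. In differentiated cells these shares were 10.8% and 11.4% at 3 h, and 11.5% and 10.8% at 6 h.

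Among 6 targets of NRF2, the factor of the oxidative stress response, Hmox1, which encodes heme oxygenase 1, was called higher in myoblasts at 3 h. It had 29.6, 28, 32.5 and 34.9 CPM without stretching and 49.6, 50.5, 50.4 and 48.3 CPM with it (log2 fold change 0.68, SE 0.053, adjusted p = 3.24e-06 by edgeR). In differentiated cells at 3 h it had 57.8 to 63.6 CPM without and 68.0 to 84.4 CPM with stretching (0.33, SE 0.060, adjusted p = 0.00368 by edgeR), below the limit on the fold. By the adjusted p-value alone, 4 of the 6 were higher at 3 h in each stage and none lower, and the median log2 fold change of the 6 was 0.31 and 0.22. At 6 h, 1 was lower in myoblasts and 2 were higher in differentiated cells. Of all genes at 3 h, 16% were higher and 15.8% lower in myoblasts, and 10.8% and 11.4% in differentiated cells. The shares at 6 h were 14.1% and 13% in myoblasts, and 11.5% and 10.8% in differentiated cells. Gclc, which was also higher at 3 h in each stage, was counted among the MTF1 targets and not in this list.

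Of 4 tested genes known to be induced by glucocorticoids, by the adjusted p-value alone 1 was higher and 1 lower in myoblasts at both 3 h and 6 h, 1 was higher in differentiated cells at 3 h, and 1 was higher and 2 were lower at 6 h. Of 9 tested genes of copper and iron handling, 2 were higher and 3 lower in myoblasts at 3 h and 6 were higher at 6 h, while in differentiated cells 1 was lower at 3 h and 2 were higher at 6 h. None of these was called with the limit on the fold. Without that limit, 16% of all genes were higher and 15.8% lower in myoblasts at 3 h, and 14.1% and 13% at 6 h. For differentiated cells the shares were 10.8% and 11.4% at 3 h, and 11.5% and 10.8% at 6 h. The difference between the changes at 6 h and at 1 h, tested with an interaction term in edgeR, passed for 12 of 42 list genes in myoblasts and 12 of 43 in differentiated cells, next to 21.1% and 11.9% of all genes.

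**Figure D4:**
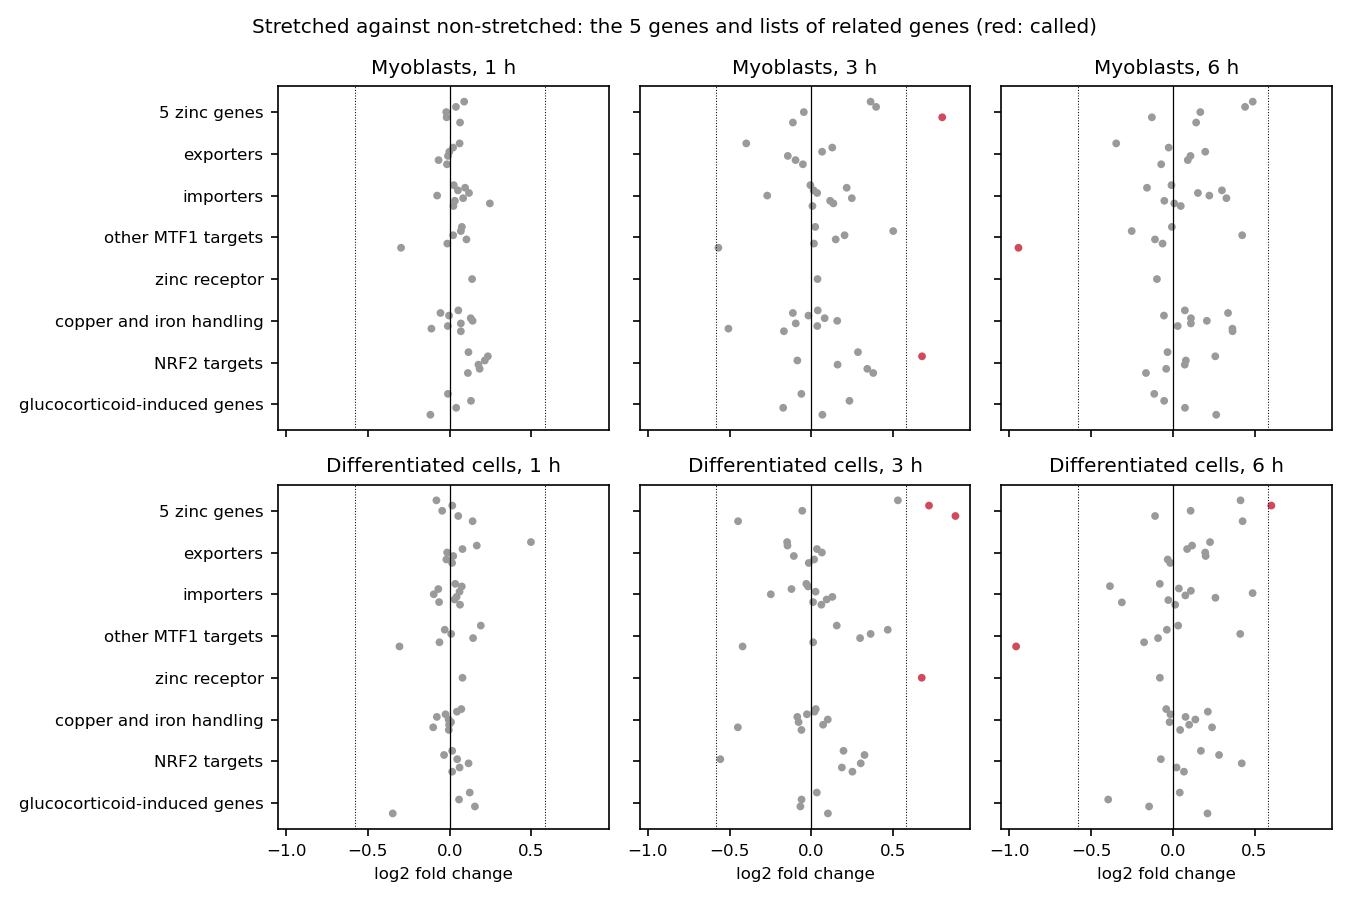
Log2 fold change of stretched against non-stretched cells (horizontal axes) of each tested gene in the 5 zinc genes and in 7 lists of related genes, by stage (rows of panels) and time (columns). Each point is a gene, red points were called, and dotted lines are at 0.58 in either direction. At 3 h Slc30a1 (0.80 and 0.88) and at 6 h Slc40a1 (-0.94 and -0.96) lie beyond these lines in both stages.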

How the data were processed

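The 48 RNA libraries of C2C12 cells were put into 12 groups of 4 by the stage, stretching and time in their labels. The authors mapped reads to mm10 with STAR, estimated transcript abundance with Salmon and deposited whole-number counts per gene symbol and library, not normalized, in a table for each stage. Where transcripts share sequence, Salmon apportions the reads between them, and a count depends on that. The authors tested the counts with DESeq2.

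Low counts were filtered with filterByExpr and library sizes scaled with TMM, both from edgeR 4.0.16 (R 4.3.3), whose quasi-likelihood test was used with Benjamini-Hochberg adjustment over all genes tested. Each stretch comparison used the 8 libraries of a time point. Non-stretched libraries were compared between times, between experiments and, with both tables scaled together, between stages. CPM use TMM sizes over the 24 libraries of a stage, and log2 CPM a prior count of 1. List genes were also tested for a difference between the 6 h and 1 h effects with an interaction term. Correlations were tested by 1e+05 permutations, two-sided. The edgeR fit was tested on simulated data with known changes.

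The 5 genes and the lists were chosen with earlier results of these data known, and the 5 genes were not tested in the contrast on which they were chosen. Named besides them are list genes that were called and the 3 genes most like Slc30a1 and the 3 most like Mt1, by the lower of the correlations in the 2 stages over genes whose mean is 1 CPM or more. Samples that share a replicate number were not taken as pairs, since 6 of 23 pairs had correlated deviations over 0.1. No 2 libraries of a group were duplicates (lowest chi-square per degree of freedom 2.74 in 72 pairs). Stretched replicate 9 of the myoblasts at 1 h carries, in its sample title, an experiment code found on no other library. The heading of its counts has the code of replicates 9 and 10, and it was counted with them.

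The alternatives tried were DESeq2 1.42.0, RLE scaling, no filter, a minimum of 10 counts in each library, one model for all 24 libraries, a covariate for the experiment, a replicate block, leaving out libraries singly, and no limit on the fold. Libraries held 48447318 to 77080730 counts.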

Additional observations from a re-analysis of the deposited data

Results flagged for a closer look

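One library stood apart from its group: among the non-stretched differentiated cells at 1 h, Mt1 was at 78.1 CPM in replicate 9, below the other 3 libraries. This was 1 of 60 groups of 4 examined, of which chance gives about 3.

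In 5 cases all stretched libraries lay on one side of the mean of the non-stretched ones at one time and on the opposite side at another. The difference between the times was not tested in these cases, since the genes were chosen on this contrast. The mean log2 difference of Slc30a1 in myoblasts was 0.92 lower at 6 h than at 3 h (-0.92). For Mtf1 in myoblasts it was higher at 6 h than at 3 h by 0.22. For Slc39a10 it differed by -0.18 between 3 h and 1 h and by 0.26 between 6 h and 3 h in myoblasts, and by 0.88 between 6 h and 3 h in differentiated cells.

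The change with stretching of related genes on the lists was compared between 6 h and 1 h with an interaction term in edgeR. In myoblasts, 12 of 42 list genes passed at an adjusted p-value under 0.05 (10 higher at 6 h and 2 lower), when 21.1% of all genes did, and in differentiated cells 12 of 43 (7 higher and 5 lower), when 11.9% did. These genes were named because they passed. Among zinc exporters in myoblasts the log2 difference between the changes at 6 h and 1 h was 0.20 for Slc30a5 and 0.16 for Slc30a7. Among importers in myoblasts it was 0.30 for Slc39a3, 0.25 for Slc39a6 and 0.25 for Slc39a13. The other differences in myoblasts were -0.32 for Gclc, 0.40 for Ndrg1, 0.48 for the copper transporter Slc31a2, 0.39 for the copper pump Atp7a, 0.30 for the transferrin receptor Tfrc, -0.28 for Txnrd1 and 0.38 for Tsc22d3.

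In differentiated cells the log2 difference was 0.21 for Slc30a5, -0.12 for Slc39a1, 0.22 for Slc39a6 and -0.46 for Slc39a11. Slc39a2 had a difference of 3.03 but only 0 to 22 counts in any library. The other differences in differentiated cells were 0.40 for Ndrg1, -0.65 for Slc40a1, 0.34 for Slc31a2, 0.30 for Slc7a11, 0.56 for Tsc22d3, -0.30 for Per1 and -0.45 for Klf9. The stretched group at 1 h in this comparison holds replicate 4.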

How the results depend on the processing

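The 30 log2 fold changes of the 5 genes with stretching (5 genes, 2 stages and 3 times) were recomputed under 15 alternatives each. All 450 values lay within 1 SD between replicates of the main value, and 10 had the other sign. None of these 10 belonged to the 12 fold changes of at least 0.3. When a library was left out, the log2 fold change of Slc30a1 at 3 h stayed between 0.76 and 0.84 in myoblasts and between 0.86 and 0.92 in differentiated cells.

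The number of list genes called depended on the limit on the fold. Without it 22 were called instead of 1 in myoblasts at 3 h, 17 instead of 1 at 6 h, 11 instead of 1 in differentiated cells at 3 h and 14 instead of 1 at 6 h. With all 24 libraries in one model, 1 was called in differentiated cells at 1 h instead of 0. Leaving out 1 library gave 1 to 2 calls in myoblasts at 3 h (2 without non-stretched replicate 8 or stretched replicate 7 or 9) and 1 to 2 at 6 h (2 when non-stretched replicate 7 or stretched replicate 10 was left out). It gave 0 to 2 in differentiated cells at 3 h (0 without stretched replicate 7, 2 without stretched replicate 9). The cause was not tested.

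Without stretching, the number of the 5 genes that passed between 3 h and 1 h in myoblasts was 1, but 0 with no filter on low counts, 0 without any one replicate and 2 with a replicate block. The block also gave 2 instead of 0 between 6 h and 1 h in myoblasts and 1 instead of 0 in differentiated cells, where the experiment as a covariate gave 1 too. The block changed no other call of the 5 genes without stretching. The interaction between 6 h and 1 h passed for 12 list genes in each stage. With DESeq2 or the block, that number was 12 to 14 in myoblasts and 11 to 14 in differentiated cells. The deviations of same-numbered samples had correlations of -0.04 to 0.15 and over 0.1 in 6 of 23 pairs, so the numbers were not taken to pair samples. Mt1 passed between the stages, at a log2 fold change of 0.07, when replicate 10 was left out. Slc39a2 and, in myoblasts, Slc40a1 have few counts, which limits what their values can show. Gpr39 was low as well, at the CPM given above.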
